A study of Mus musculus with 12 samples.

Results

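The bins described here are stretches of exon sequence inside mouse genes that took up an intermediate share of their gene's reads in resting macrophages. In exon-level counting, the annotated exons of a gene are cut at every exon boundary into bins, and reads are counted in each bin. A bin was included if it was neither the lowest- nor the highest-numbered bin of its gene, if its count in control siRNA cells without LPS (pooled over the 3 libraries) was 10% to 50% of the gene's median bin count, and if it had at least 100 counts over all 11 bin-count libraries. Genes with at least 5 bins and at least 1000 pooled counts were considered, and units that join several overlapping genes were left out. This gave 10596 intermediate bins in 4450 genes, of 149680 internal bins in 7620 considered genes and 354841 bins in all. For comparison, 104088 internal bins with at least 100 counts lay above 50% and 2216 lay under 10%. The bins were thus chosen by their counts in control siRNA without LPS, so levels in that group are given as a description only. The test was made between SF3a1 siRNA with LPS and control siRNA with LPS, whose libraries played no part in the percentage rule, although they entered the floor of 100 counts.

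The cells were RAW264.7, an established macrophage line from BALB/c mice. All were transfected for 24 hours, either with non-targeting control siRNA or with siRNA against SF3A1 (written SF3a1 below), and were then left without LPS or exposed to 20 ng/ml LPS, the bacterial cell wall component sensed by TLR4, for 4 hours. Each of the 4 groups had 3 replicates, and the groups differ in no other label. At the exon level, control siRNA with LPS is represented by replicates 1 and 2, as replicate 3 was not analysed here at that level. The bin counts of a library summed to between 17269833 and 59095475. No label says whether replicates were separate cultures on separate days, so p-values measure the spread between these samples.

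SF3a1 is a subunit of the SF3a complex, which is part of the U2 small nuclear ribonucleoprotein. The U2 particle binds the branch point of an intron and prepares it for the first step of splicing. When recognition of an intron is incomplete, the intron can be kept, an exon can be skipped together with its flanking introns, or a transcript can end at a polyadenylation site inside the intron. Each of these leaves a trace in bins that only some transcripts of a gene include.

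The targeted gene was low in every SF3a1 siRNA library. Sf3a1 stood at 173, 216 and 185 CPM (counts scaled to a common library size) in control siRNA replicates 1 to 3 and at 150, 194 and 157 CPM in control siRNA with LPS. It stood at 27.1, 27.5 and 32.1 CPM in SF3a1 siRNA and at 30.3, 26.7 and 45 CPM in SF3a1 siRNA with LPS. The groups did not overlap, and with LPS the log2 fold change was -2.30 ± 0.20 (SE, n = 3 per group; edgeR quasi-likelihood test, adjusted p = 1.47e-05). The macrophage markers Csf1r, Adgre1, Cd68, Itgam, Lyz2, Cd14, Spi1, Fcgr1 and Ptprc were all at or above 37.6 CPM in every library, whereas Mrc1 was at or below 0.963 CPM. Defining genes of T cells, B cells, fibroblasts, epithelium and endothelium reached at most 1.54 CPM in any library (Pecam1). In bulk RNA, fewer cells of a type and less RNA per cell cannot be told apart.

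Sequences of 6 of these bins are shown first, since they illustrate the kinds of bin on which the results turn. The first pair are the whole intron and the whole cassette exon of at most 300 nt outside any UTR that the naming rule gave. The others were chosen after their values were seen. Hmgxb4 bin 6 runs on from an exon into an intron, and the rest are the coding exons among the largest falls inside no annotated intron. Capitals mark the first and last 2 bases of the whole intron, the first 2 bases of the bin that runs on from an exon, and the last 3 bases of each exon bin, where a 5′ splice site would follow if the boundary is as rebuilt; the intron bases next to these exons were not read. Coordinates are of mm10 and the bases are those of GENCODE vM21 transcripts.
Exosc9 bin 6, chr3:36552752-36553034, plus strand, whole intron: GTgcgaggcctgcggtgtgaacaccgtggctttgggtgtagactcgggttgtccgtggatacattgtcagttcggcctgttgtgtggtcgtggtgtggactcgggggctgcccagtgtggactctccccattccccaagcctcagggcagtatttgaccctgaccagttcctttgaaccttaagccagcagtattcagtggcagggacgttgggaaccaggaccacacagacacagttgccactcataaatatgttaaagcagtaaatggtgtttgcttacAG
Myo5a bin 51, chr9:75196126-75196200, plus strand, cassette exon: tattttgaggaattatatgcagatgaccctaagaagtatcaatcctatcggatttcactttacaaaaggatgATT
Hmgxb4 bin 6, chr8:74998939-74999220, plus strand, runs on from the upstream exon: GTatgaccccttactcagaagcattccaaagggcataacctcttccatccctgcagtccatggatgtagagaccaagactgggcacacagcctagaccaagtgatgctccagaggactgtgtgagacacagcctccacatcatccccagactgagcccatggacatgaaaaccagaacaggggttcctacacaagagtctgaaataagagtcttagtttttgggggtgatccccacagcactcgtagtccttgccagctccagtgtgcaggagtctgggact
Dcp1a bin 8, chr14:30521590-30521655, plus strand, coding exon: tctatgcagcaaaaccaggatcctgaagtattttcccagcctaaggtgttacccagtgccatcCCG
Nfx1 bin 25, chr4:41017972-41018073, plus strand, coding exon: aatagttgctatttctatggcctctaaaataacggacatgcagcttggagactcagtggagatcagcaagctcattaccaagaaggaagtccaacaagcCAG
Tgds bin 9, chr14:118127495-118127585, minus strand, coding exon: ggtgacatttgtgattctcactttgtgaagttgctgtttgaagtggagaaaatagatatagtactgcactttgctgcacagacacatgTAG

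Coordinates could be given to 8413 of the 10596 bins (79.4%), by rebuilding bins from the annotation and matching genes with the same number of bins, which does not prove that every boundary is the same. Of these, 4704 (55.9%) lay inside no annotated intron, so that no transcript of the annotation used removes them. The other 3709 (44.1%) lay inside an intron of at least 1 transcript. Among them, 1216 were retained introns or pieces of one. Of the rest, 619 ran on from the exon upstream into an intron and 558 ran into the exon downstream. Another 509 were set by an alternative splice site of an internal exon, and 484 were intronic with exon bins on both sides. Cassette exons numbered 195 and separate first or last exons 128. A run-on bin can be a transcript end or a longer first exon, and a run-in bin a transcript start or a longer last exon. The classes do not tell these apart. Among internal bins above 50%, 87.5% lay inside no annotated intron and 1.87% were retained introns, and among bins under 10% the shares were 14.9% and 21.3%. The split of run-on, run-in, intronic and separate terminal bins was made after values had been seen.

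**Figure D1:**
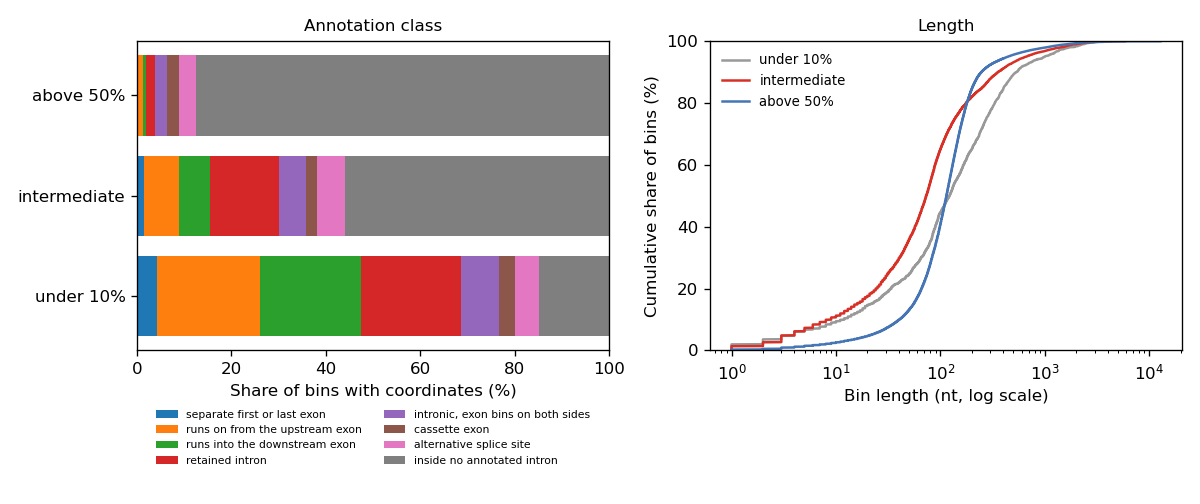
Left, share of bins with coordinates in each annotation class (%) for internal bins under 10%, intermediate and above 50% of the unit's median bin count in control siRNA cells. Right, cumulative share of bins by length (nt, log axis); the intermediate curve lies to the left, with a median of 73 nt against 114 nt above 50%.

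The name intermediate holds for the count of a bin, and the count was not divided by length. Intermediate bins had a median length of 73 nt (quartiles 32 and 138), and 35.4% were shorter than 50 nt. Bins above 50% had a median of 114 nt (75 and 164), and 12.8% were shorter than 50 nt. Median lengths were 22 nt for bins set by an alternative splice site, 57 nt for bins inside no annotated intron, 168 nt for retained introns and 290 nt for run-on bins. Of the bins inside no annotated intron, 44.4% fell in the first 20% of their gene's bins, counted from the 5′ end. Over all intermediate bins with coordinates, 31.5% fell in the first 20% and 13% in the last 20%, against 13.4% and 21.4% of bins above 50%. For the 55.9% inside no annotated intron the low count is thus not matched by an annotated alternative, and whether transcripts differ in them was not tested.

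Most boundaries at which the class implies a splice site carried its bases. Classes, coordinates and bases all came from the same annotation, so this is no check on the boundaries of the bins that were counted. Of the 619 run-on bins, 502 (81.1%) began with GT, the first bases of most introns, and of the 558 run-in bins, 493 (88.4%) ended with AG, the last bases of most introns. Among bins inside no annotated intron the shares were 13.6% and 39.7%. Among 819 whole introns of at least 40 nt, 803 both began with GT and ended with AG. Lengths divisible by 3, which leave the reading frame intact when an exon is skipped, made up 59.0% of the cassette exons (115 of 195), 42.9% of the cassette exons above 50%, and 36.4% of all intermediate bins. Coding sequence covered 71.8% of the cassette exons and 5.02% of the retained introns in full.

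The rule's bounds cut a continuous range. Around 10%, Srsf5 bin 14 (30 counts against a median of 300) and Parp9 bin 22 (11 against 110) were just inside, and Aurka bin 13 (210 against 2101) and Lcp1 bin 16 (365 against 3653) were just outside. Around 50%, Ocrl bin 7 (60 against 120) and Chordc1 bin 7 (406 against 812) were just inside, and Aldh3b1 bin 6 (464 against 927.5) and Rplp0 bin 13 (3593 against 7178) were just outside. The median intermediate bin had 32.3% of its gene's median count, 79 pooled counts in control siRNA and 255 counts over the 11 libraries.

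Relative usage, the count of a bin as a percentage of its gene's median bin count in the same library, was slightly higher in SF3a1 siRNA cells over the whole group. With LPS its median over all intermediate bins was 31.9% and 31.8% in control siRNA replicates 1 and 2, and 34.3%, 35.4% and 35.4% in SF3a1 siRNA replicates 1 to 3. Without LPS it was 30.9%, 31.6% and 30.8% in control siRNA, where the bins were chosen, and 34.8%, 35.1% and 34.6% in SF3a1 siRNA. With LPS every SF3a1 siRNA library was above both control libraries, also within replicate 1 and within replicate 2, whereas the levels without LPS rest on values the rule used and are a description. The floor of 100 counts admits bins that are high in SF3a1 siRNA cells only, so these medians and those of the classes are partly set by the rule. With a floor of 30 counts in control siRNA without LPS instead, the medians with LPS were 30.5% and 30.9% in control siRNA and 31.9%, 33.3% and 33.4% in SF3a1 siRNA. The medians of bins above 50% lay between 135% and 140% in all 11 libraries.

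Among bins inside introns the difference varied with the class, and for cassette exons it had the opposite sign. The median for retained introns was 24.5% and 21.1% in the control siRNA libraries with LPS and 29.0%, 32.9% and 33.2% in the SF3a1 siRNA libraries with LPS. For bins that run on from the upstream exon it was 22.6% and 21.9% against 27%, 31.4% and 29.1%. For run-in bins it was 20.3% and 17.7% against 24.5%, 21.8% and 24.2%. None of these classes overlapped between the groups. For bins set by an alternative splice site the groups did overlap, at 35% and 29.6% against 33.3% in each of the 3 SF3a1 siRNA libraries. With the floor on control siRNA alone the medians were 23.8% and 20.3% against 25.1%, 29.3% and 29.4% for retained introns and 21.2% and 20.5% against 23.6%, 25.8% and 25% for run-on bins. For cassette exons the median was 33.5% and 38.1% in control siRNA with LPS and 25.6%, 26.7% and 31.8% in SF3a1 siRNA with LPS, again without overlap and in the opposite direction (29.6% and 30% against 21.1%, 20.6% and 25% with that floor). For bins inside no annotated intron it was 36.8% and 38.4% against 37.9%, 38.6% and 38.9%, and the groups overlapped.

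**Figure D2:**
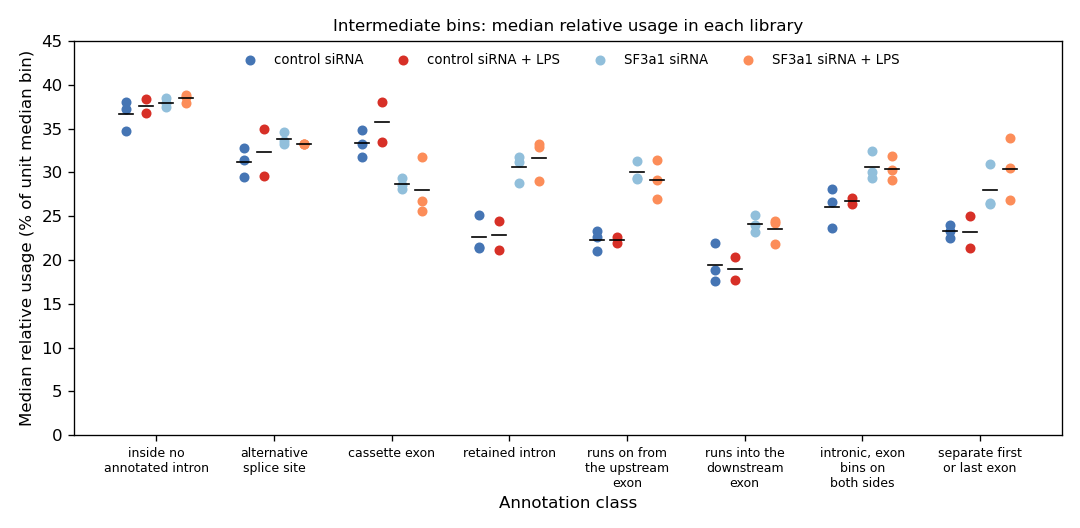
Median relative usage (% of the unit's median bin count) of intermediate bins in each of the 11 libraries, by annotation class; points are libraries coloured by group and black lines are group means. With LPS, retained introns and run-on bins sit higher in all SF3a1 siRNA libraries than in both control libraries, cassette exons sit lower, and bins inside no annotated intron stay between 34.7% and 38.9%.

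To ask which single bins changed their share of the gene under SF3a1 siRNA in LPS-treated cells, each bin was tested against the other bins of its gene with edgeR's diffSpliceDGE over all 153624 bins that passed the count filter, with Benjamini-Hochberg adjustment and a threshold of 0.1. Of all bins tested, 756 were called (0.492%), 585 of them higher (0.381%) and 171 lower (0.111%). Of the 10580 intermediate bins tested, 197 were called (1.86%) in 166 genes, 172 higher and 25 lower, and 16 bins did not pass the filter. Their median log2 fold change relative to the rest of the gene was 0.09, against 0.00 over all bins tested. Of 104062 bins above 50%, 191 were called (0.184%), 116 higher and 75 lower, and of 2211 bins under 10%, 105 were called (4.75%), 103 higher and 2 lower. On simulated counts, more of the calls of this test were false than the threshold of 0.1 allows, which bears on every bin call given here. In a fit that also holds the replicate number, 397 intermediate bins were called, 331 higher and 66 lower.

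The floor of 100 counts takes in the tested libraries, so a bin that is high only in SF3a1 siRNA cells could pass it for that reason, and the counts above are therefore a description. With a floor of 30 counts set on control siRNA without LPS alone, 160 of 10647 bins were called (1.5%), 137 higher and 23 lower, as were 187 of 105141 bins above 50% (0.178%) and 55 of 1863 bins under 10% (2.95%). The call count rests on few control libraries. It fell to 33 without replicate 1 and to 126 without replicate 2 of control siRNA with LPS, and to 128 without replicate 2 of SF3a1 siRNA with LPS. Under the rule's own floor, relative usage in SF3a1 siRNA with LPS lay above both control libraries in all 3 replicates for 1786 intermediate bins (16.9%) and below both for 1062 (10.0%), where the shares over all tested internal bins of the genes considered were 10.4% and 10.9%. With the floor of 30 counts on control siRNA alone these were 1645 (15.5%) and 1109 (10.4%) of 10647 bins, where the shares over internal bins with that floor were 9.87% and 11%.

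The share of bins called higher was smaller at each step up the range of usage. With the floor set on control siRNA alone, 2.49% of bins at 10% to 20% of the median were called higher, 1.53% at 20% to 30%, 1.12% at 30% to 40% and 0.407% at 40% to 50%. Under the rule's own floor these shares were 3.21%, 1.8%, 1.37% and 0.536%. The share called lower was between 0.174% and 0.262% in all 4 ranges with the floor on control siRNA, and showed no such order. Bins at 100% to 150% of the median were called higher in 0.0659% of cases.

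**Figure D3:**
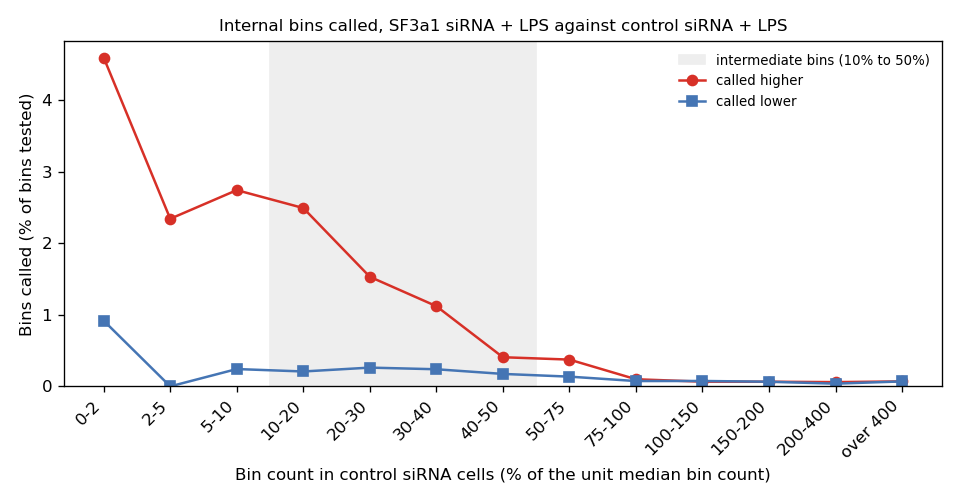
Share of internal bins called higher or lower (% of bins tested, SF3a1 siRNA with LPS against control siRNA with LPS, adjusted p of 0.1 or less) by the bin's count in control siRNA cells as a percentage of the unit's median, for bins with at least 30 counts in control siRNA. The shaded range is that of the intermediate bins, across which the share called higher goes from 2.49% to 0.407%.

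Most calls with coordinates came from bins inside introns. There, 130 were called higher and 10 lower of 3702 tested (3.78%), whereas of 4698 bins inside no annotated intron 4 were higher and 8 lower (0.255%). Of 618 run-on bins, 36 were called higher and 0 lower by edgeR, where 14 were lower at an unadjusted p under 0.05, 1 was lower by limma-voom and 2 by the DEXSeq model fitted with DESeq2. Of 556 run-in bins, 26 were higher and 1 lower, and of 128 separate first or last exons, 9 were higher and 0 lower by edgeR (5 lower at an unadjusted p under 0.05, 0 by limma-voom and 1 by the DEXSeq model). Of 1215 retained intron bins, 39 were higher and 2 lower, and their median log2 fold change was 0.37. Cassette exons had 4 higher and 2 lower of 195, with a median of -0.26. Bins without coordinates had 38 higher and 7 lower of 2180. With the floor on control siRNA alone, 102 bins inside introns were called higher and 9 lower of 3670 (3.02%). Inside no annotated intron, 5 were higher and 7 lower of 4759 (0.252%). The median log2 fold change with that floor was 0.3 for retained introns and -0.27 for cassette exons.

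The same classes also occur above 50%. Run-on bins above 50% were called higher in 14 of 811 cases (1.73%, against 5.83% of intermediate ones), and run-in bins above 50% in 3 of 513 (0.585%, against 4.68%). Retained introns above 50% were called higher in 42 of 1561 cases (2.69%, against 3.21%). With the floor on control siRNA alone, 28 of 611 intermediate run-on bins and 14 of 824 above 50% were called higher, and 21 of 554 intermediate run-in bins and 2 of 515 above 50%. For retained introns the order of the shares turned under that floor, with 30 of 1173 intermediate bins (2.56%) and 41 of 1577 above 50% (2.6%). Separate first or last exons went from 7.03% of intermediate bins to 4 of 120 (3.33%). Among bins under 10%, 3.55% of run-on bins, 3.39% of run-in bins and 4.17% of retained introns were called higher under the rule's own floor. With the floor on control siRNA alone these were 2.4%, 1.84% and 1.55%. Bins are not replicates, and these differences between shares were not tested.

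**Figure D4:**
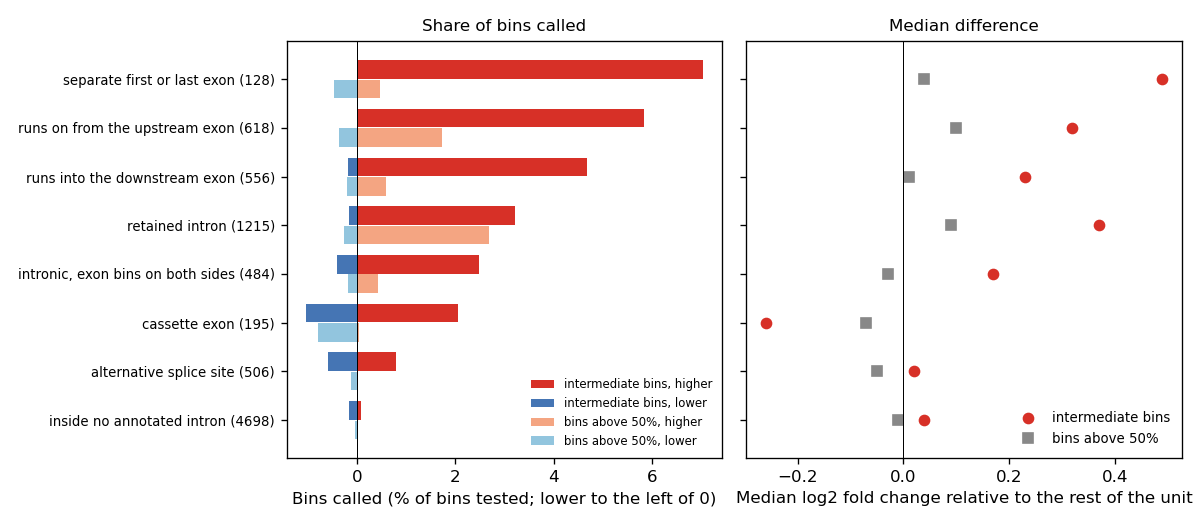
Left, share of bins called higher (right of 0) or lower (left of 0) in SF3a1 siRNA with LPS against control siRNA with LPS (% of bins tested), by annotation class, for intermediate bins and bins above 50%; the number of intermediate bins tested is in brackets. Right, median log2 fold change relative to the rest of the unit; cassette exons lie lowest, at -0.26 for intermediate bins.

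Bins called higher had a median of 288 nt (quartiles 150 and 624, n = 134 with coordinates), against 72 nt for bins tested and not called, and their median GC content was 52.8% against 50%. Of the 1510 bins of at least 200 nt, 89 were called higher (5.89%, against 1.63% of all intermediate bins tested) and 1 lower. Of the 18 bins with coordinates called lower, 11 had a length divisible by 3 (61.1%, against 36.3% of bins tested and not called), and their median length was 83 nt. Among whole introns, the 20 called higher had a mean of 38.1% T and 40.8% C (SD 14.2 and 17.3) at positions -17 to -5 before the 3′ splice site, where the polypyrimidine tract lies. The 796 not called had 42.9% T and 34.7% C (SD 15.5 and 16.6), and this difference was not tested. All values in this paragraph are for bins under the rule's own floor, which admits bins that are high in SF3a1 siRNA cells only. Which bins were called higher is thus partly set by the rule. Length, GC content and base shares of called bins were not compared with the floor on control siRNA alone.

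Of the 166 genes with a called bin, 144 had 1 and 22 had at least 2, which may lie next to each other and share reads of the same transcript. Pip5k1c, a kinase that makes phosphatidylinositol 4,5-bisphosphate, and Wdr73, a WD-repeat protein, had 4 each, the most of any gene.

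Of 32 bins named by the rule, 6 kept their direction and their call under every one of the 12 alternatives tried on them, and all 6 were higher in SF3a1 siRNA cells. The other 26 kept their direction and lost the call under at least 1. With limma-voom the calls of Hdac5, Bbc3, Slc29a1, Sh3glb2, Mks1, Slc39a13, Nfx1, Gtf2h1, AI662270, Slc35b4, Tgds, Sf1, Bcas2, Srsf4 and Exosc9 were lost (adjusted p = 0.130 to 0.650). Without the count filter those of Mks1, Exosc9 and Casp2 were lost (edgeR, adjusted p = 0.156, 0.113 and 0.129). With the 5 libraries of the groups compared fitted alone, those of Mks1, Tgds, Exosc9 and Casp2 were lost (edgeR, adjusted p = 0.106 to 0.147). Below, a value without a replicate is from the edgeR fit that leaves out that library of the groups with LPS.

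The 6 lie in Hmgxb4, Tyw1, Dnajc11, Syk, Ikbkb and Bid. Each had 35 to 74 counts over the 5 control siRNA libraries, so each passed the floor of 100 counts through reads in SF3a1 siRNA cells, and a rise in them is in part given by the rule. This held for 17 of the 32, of which 16 were rises and 1, Slc35b4, was a fall. Bbc3, Tyw1, Sh3glb2, Mks1, Slc39a13, Slc35b4 and Srsf4, with 23, 28, 28, 19, 9, 25 and 23 counts in control siRNA without LPS, would not pass the floor of 30 counts there. For 8 of the 32 (Bbc3, Slc29a1, Sh3glb2, Mks1, Slc35b4, Fnbp4, Sf1 and Srsf4) SF3a1 siRNA with LPS overlapped control siRNA without LPS, and for these the comparison rests on control siRNA with LPS. Hmgxb4 encodes an HMG-box chromatin protein, and its bin 6, shown above, runs on from an exon into an intron. Relative usage was 14.9% and 0% in control siRNA with LPS and 176%, 274% and 200% in SF3a1 siRNA with LPS. The log2 fold change was 4.46 (edgeR, adjusted p = 3.63e-06). Without control replicate 1, which held all 5 control counts with LPS, it was 8.86, and without control replicate 2 it was 3.72, so its size has no firm value.

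Tyw1 makes the wybutosine base of phenylalanine tRNA, and its bin 11 (chr5:130276989-130277749) is a separate first or last exon inside an intron. It stood at 11.3% and 20% in control siRNA with LPS and at 195%, 257% and 317% in SF3a1 siRNA with LPS (log2 fold change 4.35, edgeR adjusted p = 2.20e-07). Dnajc11 is a mitochondrial J-domain protein, and its bin 34 (chr4:151978351-151978983) is a piece of a retained intron. It stood at 8.45% and 10.5% against 56.6%, 87.2% and 123% (log2 fold change 4.23, edgeR adjusted p = 4.17e-07). That the groups do not overlap was required by the naming rule, and both bins passed the floor of 100 counts through SF3a1 siRNA reads.

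Syk is a tyrosine kinase that signals below Fc receptors and integrins in macrophages. Its bin 22 (chr13:52643153-52643614) runs on from the upstream exon and stood at 6.60% and 3.70% in control siRNA with LPS and at 90.4%, 148% and 101% in SF3a1 siRNA with LPS. The log2 fold change was 3.88 (edgeR, adjusted p = 5.68e-06) and 5.29 without control replicate 1, which held 17 of the 18 control counts with LPS, while the gene as a whole had a log2 fold change of 0.06 (edgeR, adjusted p = 0.888). Ikbkb encodes IKKβ, the kinase that marks IκB for degradation. Its bin 16 (chr8:22668011-22668683), a run-on bin of 673 nt, stood at 16.8% and 19.0% against 169%, 118% and 178% (log2 fold change 3.58, edgeR adjusted p = 3.45e-05), and the gene's level was lower by a log2 fold change of -0.99 (edgeR, adjusted p = 2.46e-04).

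Bid is a BH3-only member of the BCL-2 family. Its bin 11 (chr6:120906429-120906563) is a cassette exon of 135 nt that overlaps an annotated UTR. It stood at 23.8% and 58.3% in control siRNA with LPS and at 210%, 144% and 268% in SF3a1 siRNA with LPS, so that inclusion rose, against the median of its class. The log2 fold change was 3.08 (edgeR, adjusted p = 1.39e-05).

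The remaining 6 of the 10 largest rises rest on at most 3 counts over both control siRNA libraries with LPS. Hdac5 bin 36 (a class II histone deacetylase, run-in bin) and Bbc3 bin 2 (PUMA, a p53-induced BH3-only protein, separate terminal exon) had 0, so their fitted log2 fold changes of 6.52 and 5.79 (edgeR, adjusted p = 3.45e-03 and 0.0372) have no fixed size. With 3 counts in the whole control group taken as the floor, relative usage in SF3a1 siRNA with LPS was at least 5.16-fold higher for Hdac5 and at least 2.26-fold higher for Bbc3. Bbc3 bin 2 stood at 29.5%, 35% and 27.4% in SF3a1 siRNA with LPS and at 34.1%, 23.5% and 37.1% in SF3a1 siRNA without LPS. In control siRNA without LPS, whose values the rule used, it stood at 27%, 60.9% and 57.1%, so its call rests on the 0 counts in control siRNA with LPS and not on a level in SF3a1 siRNA above that of resting control cells. SF3a1 siRNA with LPS also overlapped resting control cells for Sh3glb2 (148%, 47.6% and 46.2% against 39.6%, 71.4% and 26.7%), Mks1 (108%, 81.8% and 43.8% against 15%, 84.6% and 35.7%) and Slc29a1 (31%, 152% and 135% against 32.2%, 20% and 30.4%). The ratio of relative usage was 13.5 for Slc29a1 bin 43 (a nucleoside transporter; 95% exact Clopper-Pearson interval 3.57 to 114, counting error only), 8.97 for Sh3glb2 bin 17 (endophilin B2; 2.41 to 75.3), 15.8 for Mks1 bin 12 (a ciliary protein; 2.69 to 637) and 13.7 for Slc39a13 bin 10 (a zinc transporter; 4.61 to 67). Without control replicate 1 all 6 calls were lost (adjusted p = 1 for Hdac5 and Bbc3, 0.2 for Slc29a1, 0.609 for Sh3glb2, 0.991 for Mks1 and 0.42 for Slc39a13). Those of Bbc3, Sh3glb2 and Mks1 were also lost without control replicate 2 (0.232, 0.155 and 0.519), those of Sh3glb2 and Mks1 without SF3a1 siRNA replicate 1 (0.111 and 0.301), and those of Bbc3 and Mks1 without SF3a1 siRNA replicate 2 (0.101 and 0.189).

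Several of the largest falls were in bins that lie inside no intron of the annotation used. Nfx1, a zinc finger transcription factor, had the largest, in coding exon bin 25. It stood at 35.2% and 43.8% in control siRNA with LPS and at 6.11%, 6.45% and 7.5% in SF3a1 siRNA with LPS (log2 fold change -2.93, edgeR adjusted p = 0.0150). The 3 SF3a1 siRNA libraries were close to each other, and without LPS they stood at 19%, 7.14% and 25.5%. The call was lost without control replicate 1 (adjusted p = 0.226) and without SF3a1 siRNA replicate 1 (adjusted p = 0.121).

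Dcp1a is a cofactor of the mRNA decapping enzyme, and its coding exon bin 8 of 66 nt, a multiple of 3, stood at 50.6% and 67.5% against 1.63%, 9.84% and 15.5% (log2 fold change -2.90, edgeR adjusted p = 8.68e-03). Tgds, a dehydratase of nucleotide sugars, had its 91 nt coding exon bin 9 at 36.8% and 98% against 9.48%, 6.84% and 11.2% (log2 fold change -2.51, edgeR adjusted p = 0.0747). Sf1 is the branch point binding protein that acts before U2. Its bin 2 (chr19:6363719-6363809) stood at 19.2% and 45.8% against 3.91%, 8.55% and 5.30% (log2 fold change -2.39, edgeR adjusted p = 0.0336). This bin is not wholly coding, and whether an exon was skipped there was not tested. The groups overlapped in none of the bins of Dcp1a, Tgds and Sf1, which the naming rule required. The 2 control libraries of Tgds and of Sf1 lay far from each other. The call of Dcp1a was lost without control replicate 2 (adjusted p = 0.264) and without SF3a1 siRNA replicate 1 (0.154), and its log2 fold change was -3.86 without SF3a1 siRNA replicate 3. The call of Tgds was lost without any 1 of the 5 libraries (adjusted p = 0.135 to 0.687). That of Sf1 was lost without control replicate 1 (0.163) or 2 (0.387) and without SF3a1 siRNA replicate 1 (0.123) or 3 (0.23).

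Among annotated cassette exons, Myo5a bin 51 fell. Myo5a is a myosin motor that carries vesicles, and this exon of 75 nt lies in its coding sequence. It stood at 94.5% and 26.7% in control siRNA with LPS and at 10.5%, 8% and 11% in SF3a1 siRNA with LPS (log2 fold change -2.40, edgeR adjusted p = 0.0459). Its call was lost without control replicate 1 (log2 fold change -1.31, adjusted p = 1) and without SF3a1 siRNA replicates 1, 2 or 3 (adjusted p = 0.151, 0.18 and 0.152), and its log2 fold change was -3.03 without control replicate 2. Gtf2h1, a subunit of the TFIIH complex, had cassette exon bin 4 at 40.3% and 6.93% against 3.11%, 0.797% and 4.49% (log2 fold change -2.85, edgeR adjusted p = 5.52e-03). Here control replicate 1 held 126 counts and control replicate 2 held 7, and the log2 fold change without replicate 1 was -1.09 (edgeR, adjusted p = 1) and -3.49 without replicate 2. The DEXSeq model gave Gtf2h1 an adjusted p of 0.268.

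Ppid bin 8 (chr3:79595309-79596091) was a whole intron of 783 nt that fell, against the direction of its class. Ppid encodes cyclophilin 40, a co-chaperone of HSP90. The intron stood at 17% and 43.1% in control siRNA with LPS and at 3.74%, 3.25% and 5.85% in SF3a1 siRNA with LPS (log2 fold change -2.65, edgeR adjusted p = 1.84e-04). In SF3a1 siRNA without LPS it stood at 9.06%, 5.85% and 3.33%. The level of the gene rose by a log2 fold change of 0.76 (edgeR, adjusted p = 1.25e-03). Without control replicate 2 the call was lost (log2 fold change -1.82, adjusted p = 0.245), and without control replicate 1 the log2 fold change was -3.24. The remaining falls were AI662270 bin 3 (alternative splice site, log2 fold change -2.77), Slc35b4 bin 9 (a nucleotide sugar transporter, -2.68) and Fnbp4 bin 21 (a formin-binding protein, a bin of 3 nt, -2.64), with edgeR adjusted p of 6.27e-03, 0.0315 and 0.0352. These calls were lost without control replicate 1 for Slc35b4 and Fnbp4 (0.13 and 1), without control replicate 2 for AI662270 and Slc35b4 (0.128 and 0.44), without SF3a1 siRNA replicates 1 or 2 for Slc35b4 (0.166 and 0.3) and Fnbp4 (0.241 and 0.14), and without SF3a1 siRNA replicate 3 for AI662270 (0.107). The log2 fold change of Slc35b4 was -3.35 without SF3a1 siRNA replicate 3. Its fall rests on high values in control siRNA with LPS (52.5% and 146%), since SF3a1 siRNA with LPS, at 9.03%, 7.02% and 29.4%, overlapped resting control cells at 23.6%, 15.8% and 4.94%, and SF3a1 siRNA without LPS stood at 45%, 45.7% and 22.6%.

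**Figure D5:**
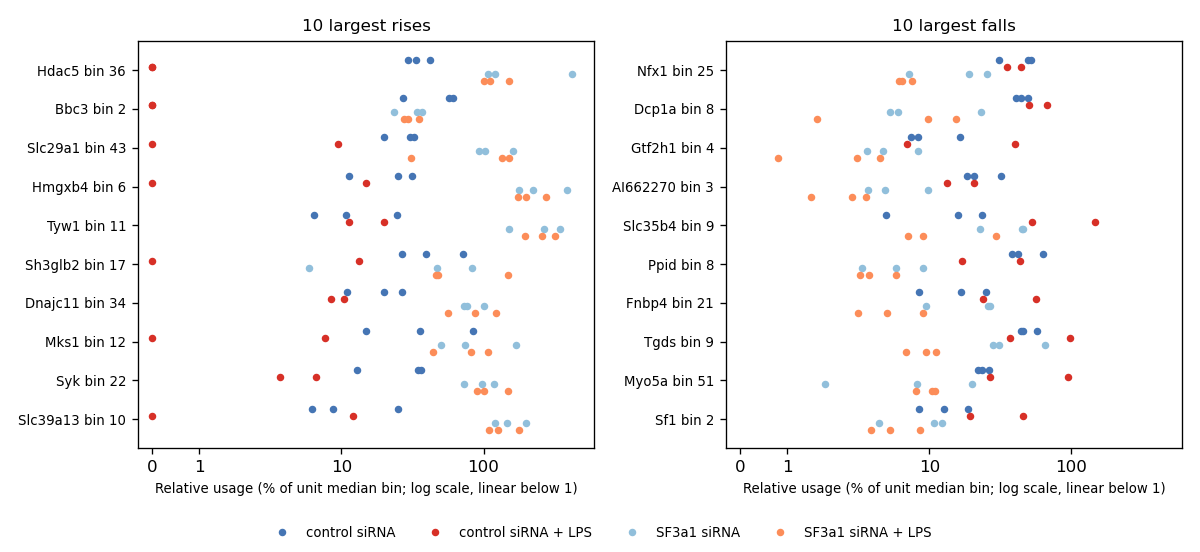
Relative usage (% of the unit's median bin count; log axis, linear below 1) of the bins with the 10 largest rises and the 10 largest falls, 1 point per library, coloured by group. SF3a1 siRNA with LPS and control siRNA with LPS do not overlap in any of the 20, as the naming rule required, and control libraries at 0 lie at the left edge.

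Shares called in the gene lists stand beside 1.86% of all intermediate bins tested and 0.492% of all bins tested. In 37 genes of TLR and NF-κB signalling, 97 bins were tested and 2 were called, both higher (2.06%, near the share of all intermediate bins). One is Ikbkb bin 16, which passed the floor of 100 counts through SF3a1 siRNA reads. The other is bin 13 of Rbck1, a subunit of the linear ubiquitin ligase, a retained intron piece (chr2:152323499-152324266) at 41.7% and 36.8% against 155%, 151% and 116% (log2 fold change 1.80, edgeR adjusted p = 9.96e-03). The call of Rbck1 was lost without control replicate 1 (0.302) or 2 (0.19). In MAP kinase genes 0 of 60 bins were called by edgeR, limma-voom or the DEXSeq model, with 5 at an unadjusted p under 0.05. In genes of DNA replication and mitosis 0 of 145 were called by edgeR (9 at an unadjusted p under 0.05, 0 by limma-voom and 2 by the DEXSeq model). In genes of the p53 pathway and apoptosis 3 of 50 were called (6%), and over all tested bins of these genes 8 of 719 (1.11%). The 3, all higher, had 66 (Bid), 23 (Bbc3) and 70 (Casp2) counts over the control siRNA libraries and passed the floor of 100 through SF3a1 siRNA reads, so that their share and direction are partly set by the rule. Casp2 bin 4 is a retained intron piece of 2193 nt in the gene of an initiator caspase (log2 fold change 2.41, edgeR adjusted p = 0.0781). Casp2 lost its call without control replicate 1 (0.822) or 2 (0.439) or without SF3a1 siRNA replicate 1 (0.281) or 3 (0.235).

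In the lists of splicing factors the shares called, 1.52% and 1.74%, were near the 1.86% of all intermediate bins. In the core spliceosome 1 of 132 bins was higher, Bcas2 bin 13, a retained intron piece in a PRP19 complex gene (log2 fold change 2.81, edgeR adjusted p = 0.0397), and 1 was lower, in Sf1. Among SR proteins, hnRNPs and their kinases, 2 of 172 were higher and 1 was lower. The 2 were Ewsr1 bin 24, a run-on bin at 15.6% and 26.7% against 67%, 73.2% and 104%, and Srsf4 bin 7, a whole intron of 614 nt at 6.10% and 0% against 17.7%, 59.6% and 76.2%. The call of Srsf4 (log2 fold change 3.20, edgeR adjusted p = 0.0523) was lost with the replicate block (adjusted p = 0.155) and with the DEXSeq model (adjusted p = 0.106). Without control replicate 1, which held all 5 control counts with LPS of this bin, its log2 fold change was 7.35. The 1 that fell was Hnrnpc bin 9, for which no coordinates were found, at 14.7% and 17.5% against 4%, 4.82% and 5.22% (log2 fold change -1.73, edgeR adjusted p = 0.0165). Bcas2, Ewsr1, Srsf4 and Hnrnpc lost their call without control replicate 1 (0.764 for Bcas2, 0.59 for Ewsr1, 0.459 for Srsf4 and 0.139 for Hnrnpc), and Bcas2, Srsf4 and Hnrnpc without control replicate 2 (0.307, 0.474 and 0.2). Bcas2 also lost it without SF3a1 siRNA replicate 3 (0.167), and Srsf4 without SF3a1 siRNA replicate 2 (0.202) or 3 (0.384).

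In the list of nonsense-mediated decay, RNA decay and mRNA export, 5 of 88 bins were called (5.68%, against 1.86% of all intermediate bins), 4 higher and Dcp1a lower. Over all tested bins of these genes the share was 0.648%, against 0.492% of all bins. Of the 88 bins, 11 had an unadjusted p under 0.05 (edgeR), where 10.4% of all intermediate bins did. Exosc9 bin 6 had 73 counts over the control siRNA libraries and passed the rule's count floor through SF3a1 siRNA reads. The share of 5.68% is thus partly set by the rule. The other called bins had 104 to 436 counts there and did not need those reads. Exosc10, the catalytic subunit of the nuclear exosome, had 2 neighbouring bins. Its bin 31 (chr4:148576225-148576502) stood at 22.1% and 28.7% in control siRNA with LPS and at 134%, 145% and 149% in SF3a1 siRNA with LPS (log2 fold change 2.35, edgeR adjusted p = 7.37e-04), and bin 32 stood at 6.45% and 12% against 56.8%, 72.5% and 50.8%. They share transcripts and are not independent. Ddx39, an RNA helicase of mRNA export, kept the whole intron of bin 13 (chr8:83721853-83722229) at 26.9% and 24.8% against 90%, 65.6% and 77.9% (log2 fold change 2.06, edgeR adjusted p = 4.75e-03). The Exosc9 intron shown above, in a core subunit of the exosome, stood at 8.82% and 12.1% against 67%, 54.1% and 80.6% (log2 fold change 2.54, edgeR adjusted p = 0.0774). Exosc10 and Ddx39 fell at the gene level, by log2 fold changes of -0.87 and -1.36 (edgeR, adjusted p = 7.49e-04 and 1.62e-04). Without control replicate 1 the calls of Exosc10 (0.284 and 0.849), Ddx39 (0.266) and Exosc9 (1) were lost, and that of Exosc9 was lost without any 1 of the other 4 libraries (0.121 to 0.312).

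At the level of whole genes, 5818 of 14983 genes were called between the same groups (38.8%; 18.4% higher and 20.4% lower). Of the 4450 genes with an intermediate bin 2101 were called (47.2%), and of 3170 considered genes without one 1502 were (47.4%). Of the 142 genes with a bin called higher, 19 were higher and 51 were lower, and their median log2 fold change was -0.24. Of the 25 genes with a bin called lower, 7 were higher and 3 were lower, with a median of 0.21. These medians stand beside -0.04 over all genes tested, and no test of the sets was made.

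To ask whether LPS moved these bins once SF3a1 was depleted, SF3a1 siRNA with LPS was compared with SF3a1 siRNA without LPS. Of 10580 intermediate bins 1 was called (0.00945%), where 39 of 153624 bins were called in all (0.0254%; 0.0208% higher and 0.00456% lower). An unadjusted p under 0.05 was found for 208 of them (1.97%), limma-voom called 1, the DEXSeq model fitted by DESeq2 called 4, and the fit with the replicate block called 5. The median log2 fold change was -0.01. For the named bins the adjusted p of this comparison was 1 throughout (edgeR), and a p that misses the threshold does not show equal usage.

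The 1 bin called was Daxx bin 9, which has no coordinates and was chosen after its values were seen. Daxx is a histone chaperone and transcriptional corepressor. The bin held 0, 2 and 1 counts in SF3a1 siRNA and 140, 126 and 246 counts in SF3a1 siRNA with LPS, and its relative usage went from 0%, 3.2% and 2.44% to 64.7%, 90.3% and 118% (log2 fold change 5.59, edgeR adjusted p = 5.58e-16). In control siRNA without LPS it held 14, 7 and 11 counts, so it passed the rule's count floor through reads in the libraries with LPS. A rise with LPS in this bin is thus in part given by the rule. In control siRNA with LPS the bin stood at 153% and 159%. Between the groups with LPS its log2 fold change was -0.76 (edgeR, adjusted p = 1).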

How the data were processed

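Per the labels and the study's methods, poly-A RNA went through single-end Ion Proton sequencing, reads were mapped to mm10 with GSNAP, and unique reads were counted per gene with HTSeq and per exon bin with DEXSeq's script. The deposited values are raw counts; strand use in counting is not given in the sources used here. Counts were fitted over all libraries with edgeR 4.0.16 in R 4.3.3 (TMM scaling, low-count filter; diffSpliceDGE for 11 bin libraries, glmQLFTest for 12 gene libraries), with calls at an adjusted p of 0.1 or less. Alternatives used limma 3.58.1, DESeq2 1.42.0, other filters, a replicate block and omitted replicates. Bins were rebuilt from GENCODE vM21 (31293 of 37223 units matched, 76.1% of bins). Samples of 1 replicate number deviated together (r = 0.141 to 0.468 over 15 pairs, -0.447 to 0.273 over 30 others). Named bins: called members with coordinates whose groups do not overlap, with the 10 largest rises and falls, plus called members of 7 gene lists. The intermediate bins (members) and lists were chosen with earlier results of these data known. Intervals and floors cover counting error only.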

Additional observations from a re-analysis of the deposited data

Results flagged for a closer look

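Reads outside annotated genes, which enter none of the tests, were more frequent in SF3a1 siRNA without LPS than in control siRNA without LPS, at 27.2%, 21.56% and 20.83% of reads against 18.21%, 19.63% and 17.85%. The lowest SF3a1 siRNA library, at 20.83%, was above every control library. With LPS the groups overlapped, at 19.91%, 18.2% and 21.37% against 19.83%, 19.3% and 17.75%. The part of these reads in the usage of intermediate bins was not tested.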

How the results depend on the processing

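For SF3a1 siRNA with LPS against control siRNA with LPS, where 197 intermediate bins were called, higher calls outnumbered lower ones under each alternative tried. The count was 124 with a filter of 50 counts, 342 with the DEXSeq model fitted by DESeq2, 397 with the replicate block and 118 when bins of at least 100 nt were kept. Omitting 1 replicate at a time gave 33 to 232, lowest without replicate 1 of control siRNA with LPS. For SF3a1 siRNA with against without LPS, where 1 bin was called, the count was 4 with the DEXSeq model, 5 with the replicate block, 0 at 15% to 45% of the median, 2 with a floor of 30 counts in control siRNA and 0 for bins of at least 100 nt, and 1 to 3 with 1 replicate omitted. Where edgeR called 0, 156 and 69 bins had an unadjusted p under 0.05. The number of host genes called stayed within 1.5 times of 2101 (1689 to 2164 with 1 replicate omitted), and the Sf3a1 log2 fold change ran from -2.55 to -2.15. The replicate block changed the call of 1 named bin, Srsf4. Of the 367 values of the 32 named bins under alternatives, 0 changed sign and 90 lost the call, 23 of them without replicate 1 of control siRNA with LPS, 15 without its replicate 2 and 15 with limma-voom; the cause was not tested. With 1 control library left, its spread is assumed to be that of the other groups. Bins with few reads limit the depth, since 5 intermediate bins had 0 counts in control siRNA with LPS. With these at their bound of 3 counts the median log2 fold change stayed 0.088. So few of the 10580 bins tested could hardly move a median, so this says little about bins with low counts. The floor of 30 counts was applied to relative usage and to overlap between groups after the data were seen.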
